A study of Mus musculus with 9 samples.

Results

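Lysosomal proteases, together with a thiol reductase and a protease inhibitor that act beside them, prepare peptides for MHC class II molecules. The list holds 10 genes, and members were the probe sets whose gene symbol in the deposited table is Ctss, Ctsl, Ctsb, Ctsd, Ctsh, Ctsz, Lgmn, Ifi30, Prss16 or Cst3. Of these 10 genes, 9 had a probe set, 1 each, among the 19593 genes and 35552 probe sets of the table. Ctsl, or cathepsin L, was not analysed here. Members were set by gene symbol and not by measured level, though earlier results of these data were known when the list was chosen.

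The cells are medullary thymic epithelial cells carrying CD80, taken from the thymus of female Balb/c mice aged 4 to 6 weeks. The 9 arrays form 3 groups of 3, namely C2TA knockdown (replicates 4 to 6), C2TA knockout (replicates 7 to 9) and C2TA wild type (replicates 1 to 3). The labels do not give the silencing construct, the allele that was deleted or how many mice stand behind an array, and the p-values below speak only of how far these arrays scatter. C2TA is the protein of the gene Ciita, the transactivator that switches on class II genes, and the comparisons ask how loss of it, partial or complete, goes with the messenger RNA of the enzymes that feed class II molecules.

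Class II molecules reach the endosome bound to the invariant chain, the product of Cd74. Cysteine cathepsins and the asparagine endopeptidase cut the invariant chain away and, with the aspartic protease cathepsin D, break imported proteins into peptides, while the reductase GILT opens disulphide bonds so that folded antigens become accessible to them. In the thymus the enzymes are divided between compartments: in mice, cathepsin L and the thymus-specific serine protease Prss16 are known from cortical epithelium, and cathepsin S from dendritic cells, B cells and medullary epithelium. Many lysosomal genes carry the letters CACGTG near their start, an E-box that factors of the TFEB family bind, and interferon-inducible genes often carry the core of the interferon-stimulated response element, which is GAAA, any 2 bases, and GAAA again.

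Promoter sequences were found for 6 of the 9 measured genes in the RefSeq table of build GRCm38.p6. Of the genes that hold letters of these 2 motifs, Lgmn is left out and the sequences of 3 are shown. Each is the 250 bases before the annotated start, 5′ to 3′ on the strand of the gene. In Ctss, at chr3:95526536-95526785 on the plus strand, the capitals mark the response element core, which begins 21 bases before the start.
Ctss: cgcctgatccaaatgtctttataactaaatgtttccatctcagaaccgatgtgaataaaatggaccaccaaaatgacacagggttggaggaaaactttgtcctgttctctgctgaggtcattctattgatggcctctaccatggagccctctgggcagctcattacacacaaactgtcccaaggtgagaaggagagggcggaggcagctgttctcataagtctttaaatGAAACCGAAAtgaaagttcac
In Ctsd, at chr7:142387828-142388077 on the minus strand, the capitals mark CACGTG, which begins 245 and 98 bases before the start.
Ctsd: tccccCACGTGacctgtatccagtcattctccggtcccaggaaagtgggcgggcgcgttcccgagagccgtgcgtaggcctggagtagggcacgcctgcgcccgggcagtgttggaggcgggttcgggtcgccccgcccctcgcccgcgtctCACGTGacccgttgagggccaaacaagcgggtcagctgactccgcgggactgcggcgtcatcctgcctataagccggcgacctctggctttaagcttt
In Ifi30, at chr8:70766664-70766913 on the minus strand, the capitals mark CACGTG, which begins 196 bases before the start.
Ifi30: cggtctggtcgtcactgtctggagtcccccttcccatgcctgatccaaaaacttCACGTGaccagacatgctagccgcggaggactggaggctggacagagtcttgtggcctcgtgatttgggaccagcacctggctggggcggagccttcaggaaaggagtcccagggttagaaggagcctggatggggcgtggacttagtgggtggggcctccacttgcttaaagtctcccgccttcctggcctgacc

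Of the 6 genes with a promoter, 3 held CACGTG, namely Ctsd, Ifi30 and Lgmn (49 bases before the second of its annotated starts), where 6.02% of all 32851 windows of 250 bases did. The share is per window, while Lgmn counts once for 2 windows. The response element core, searched on both strands, was found in Ctss alone among the 6, and in 2.98% of all windows. CCAAT, the letters bound by NF-Y at the Y box of class II promoters, stood on either strand in Ctsz and Lgmn, and in 33.8% of all windows. These matches describe the letters only, and the arrays measured no binding.

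Values are log2 levels on the RMA scale. Wild type 1 stood apart from the other arrays, with an interquartile range of 2.20 over all genes, and knockout 7 came next with 2.37, against 2.53 to 2.80 on the other 7. This touches the members directly. Of the 8 members with a single lowest array, 7 were lowest on wild type 1, and knockout 7 was the lowest knockout array for 8 members. Member results are therefore also given without wild type 1, while the medians of other gene lists use all 9 arrays. The targeted gene Ciita had 5.44, 4.94 and 5.50 in the knockdown, 5.96, 6.16 and 6.11 in the knockout, and 6.37, 6.55 and 6.28 in wild type. The knockdown arrays were the lowest, and where the probe set lies relative to the deletion is not known, so Ciita does not check the knockout label.

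By limma, with Benjamini-Hochberg adjustment over all 19593 genes and a threshold of 0.05, 0 of 9 members passed in each of the 3 comparisons. Over all genes 0.0664% passed between knockdown and wild type, 0.0459% between knockout and wild type and 0.0408% between knockdown and knockout. Before adjustment, limma p-values under 0.05 belonged to 2 members in the knockdown against wild type (Ctsd and Lgmn), 1 in the knockout against wild type (Ctsb) and 2 in the knockdown against the knockout (Ctsd and Lgmn). The shares over all genes at that p were 5.24%, 3.34% and 5.04%.

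No member changed by as much as 1 on the log2 scale, where 0.163%, 0.0715% and 0.122% of all genes did in the same order of comparisons. In the fit of all 9 arrays the intervals bound the changes further, and the intervals of the other fits were not examined. All 9 intervals of the log2 change, at 95%, lay inside a 2-fold change either way for the knockdown against wild type, with bounds from -0.87 to 0.90. All 9 also did for the knockout against wild type, with bounds from -0.77 to 0.90. Between knockdown and knockout 8 of 9 did, and the interval for Ctss reached -1.06. On the same arrays the class II genes that these enzymes serve had changes beyond those bounds. H2-Ea, the class II E alpha chain, fell by 5.34 (SE 0.22) in the knockout, and H2-Oa, a chain of the chaperone that restrains peptide loading, fell by 1.96 (SE 0.18) in the knockdown. Of 9 measured genes on a list of class II molecules, their chaperones and Ciita, 3 passed as lower in the knockdown and 8 in the knockout, with medians of -1.44 and -2.26, where the 9 protease genes had medians of -0.09 and 0.03 and all genes 0.0096 and 0.0075.

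**Figure D1:**
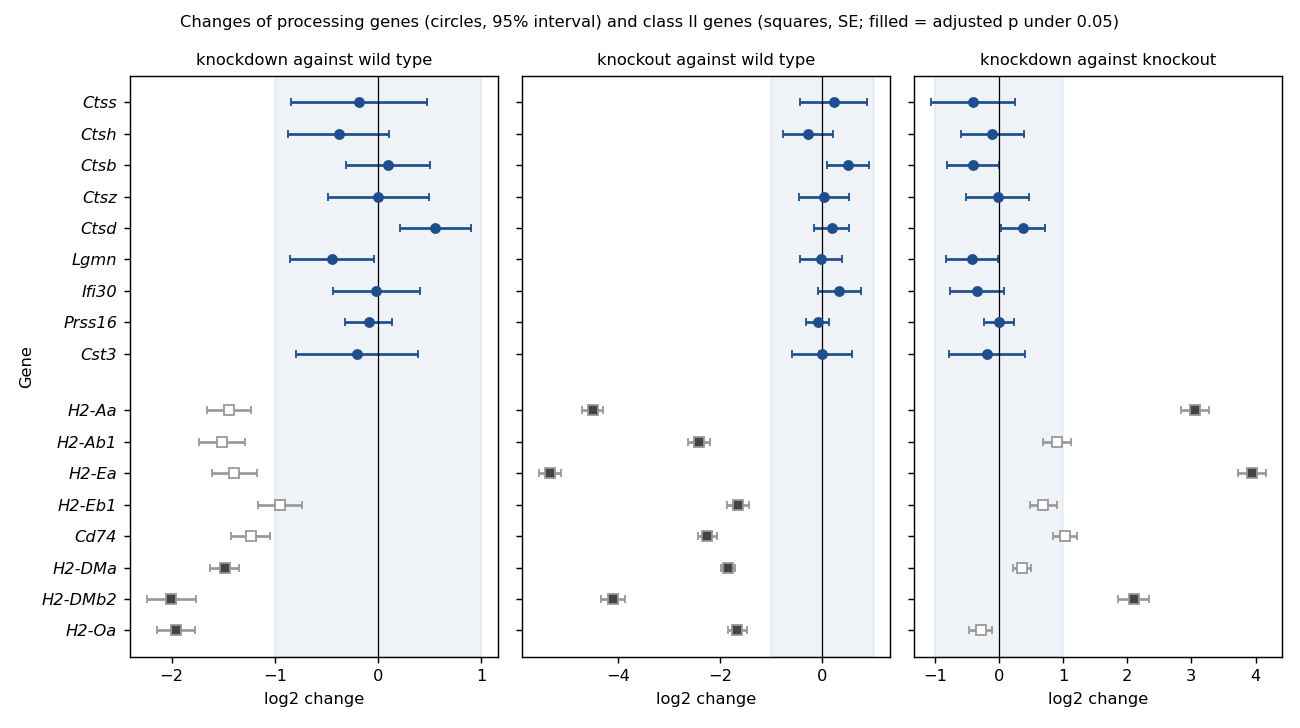
Log2 change (x axis) of the 9 antigen-processing genes (circles, 95% interval) and 8 class II genes (squares, standard error, filled where the limma adjusted p was under 0.05) in the 3 comparisons, with a 2-fold band shaded. The processing genes lie between -0.45 and 0.55, and in the knockout all 8 class II genes lie left of the band.

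Among the cysteine endopeptidases, Ctss, which makes the last cuts in the invariant chain in antigen-presenting cells, had 8.0, 7.79 and 8.17 in the knockdown, 8.03, 8.52 and 8.64 in the knockout, and 7.44, 8.68 and 8.39 in wild type. The highest and the lowest of the 9 arrays were both wild type, so each group overlapped the wild type. Against wild type Ctss changed by -0.18 (SE 0.29) in the knockdown and 0.22 (SE 0.29) in the knockout, with limma adjusted p-values of 0.983 and 1.0. Knockdown against knockout gave -0.41 (SE 0.29), and those groups overlapped through knockout 7. Without wild type 1 the change in the knockdown was -0.55 and in the knockout -0.14, and without wild type 2 the change in the knockdown was 0.07. None of these passed.

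Ctsb, or cathepsin B, cuts both inside proteins and from their carboxyl end. It had 7.84, 7.51 and 7.78 in the knockdown, 7.84, 8.09 and 8.41 in the knockout, and 7.32, 7.72 and 7.82 in wild type. All 3 knockout arrays were above all wild type arrays, the nearest pair being 7.84 and 7.82. The mean was 1.41-fold higher in the knockout (log2 change 0.50, SE 0.18, limma adjusted p of 1.0), and 0.35 without wild type 1. The knockdown differed from wild type by 0.09 (SE 0.18), or -0.06 without wild type 1. Ctsb was the only member whose knockout and wild type arrays did not overlap, where 4.83% of all genes did not (2.54% higher, 2.29% lower). Between knockdown and knockout the change was -0.40 (SE 0.18), and the highest knockdown array and the lowest knockout array both stood at 7.84.

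The exopeptidases trim peptides from their ends. Ctsh, an aminopeptidase, had 8.39, 8.33 and 8.52 in the knockdown, 8.37, 8.60 and 8.58 in the knockout, and 8.26, 9.27 and 8.86 in wild type. Wild type 2 and 3 were above all 6 other arrays and wild type 1 was below them. The changes were -0.38 (SE 0.22) in the knockdown and -0.28 (SE 0.22) in the knockout with all arrays, against -0.65 and -0.55 without wild type 1, where the limma adjusted p-values were 0.156 and 0.446. Between knockdown and knockout Ctsh had -0.10 (SE 0.22).

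Ctsz, a carboxypeptidase, had 9.53, 9.64 and 9.73 in the knockdown, 9.56, 9.75 and 9.66 in the knockout, and 9.03, 9.98 and 9.88 in wild type. Here too the wild type arrays lay on both sides of the other 6. The means of the 3 groups differed by at most 0.03. Without wild type 1 the changes against wild type were -0.30 in the knockdown and -0.27 in the knockout. The knockdown change, 0.0024 with all arrays, also fell below 0 without knockdown 5 or knockdown 6, at -0.0017 and -0.04, so its sign is not settled.

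**Figure D2:**
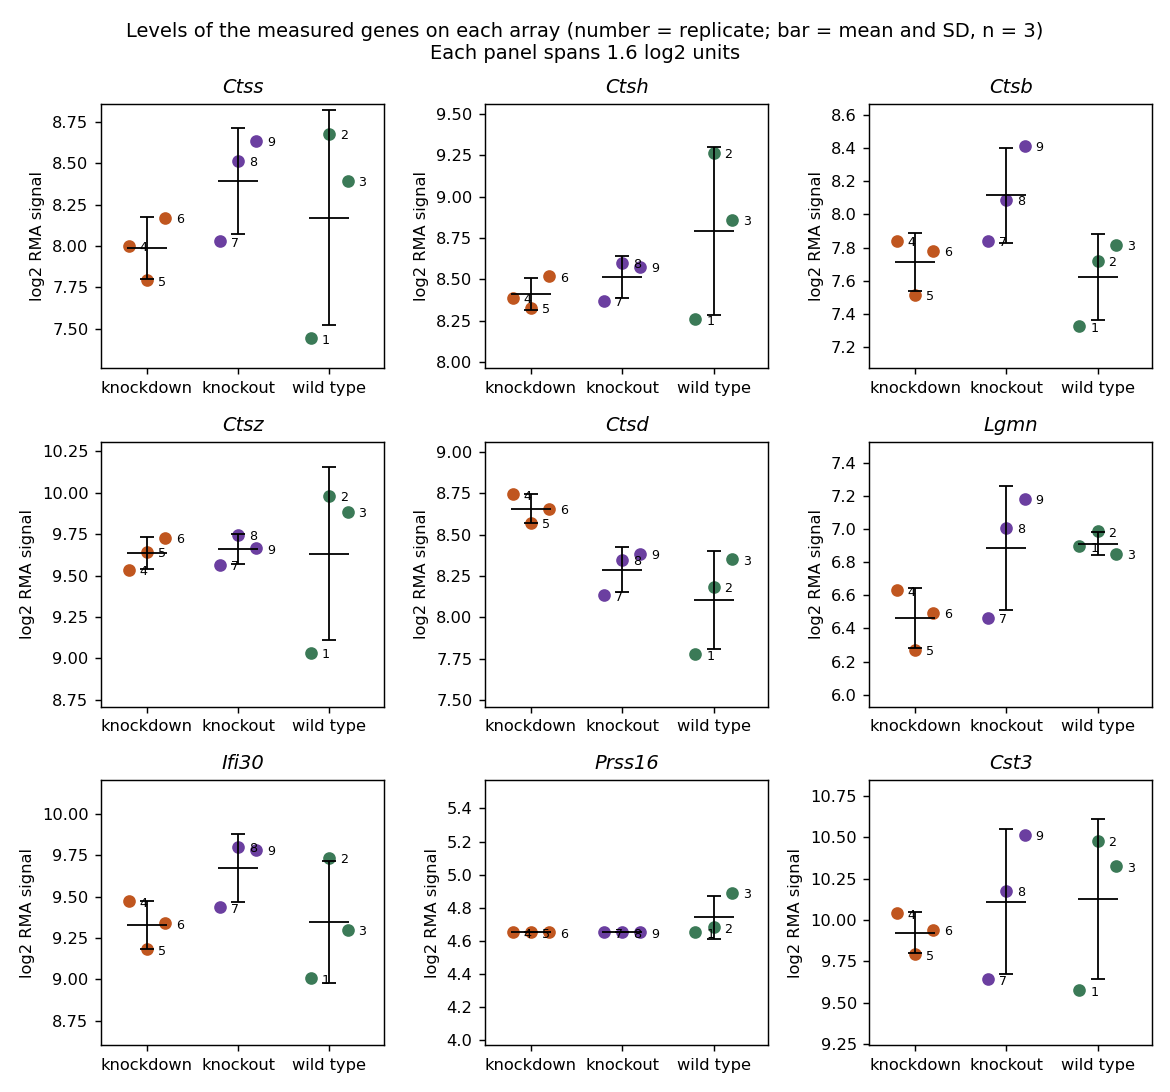
Log2 RMA signal (y axis, the same span in every panel) of the 9 genes on each array, for knockdown, knockout and wild type, with the mean and SD of 3 arrays as bars and replicate numbers beside the points. Wild type 1 is the lowest point for 7 genes, and the knockdown stands clear of both other groups for Ctsd.

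Ctsd, the aspartic protease that degrades bulk protein in the lysosome, had 8.74, 8.57 and 8.66 in the knockdown, 8.13, 8.35 and 8.38 in the knockout, and 7.78, 8.19 and 8.35 in wild type. All 3 knockdown arrays were above all 6 other arrays. The mean was 1.47-fold higher in the knockdown than in wild type (log2 change 0.55, SE 0.15, interval 0.21 to 0.90), with a limma adjusted p of 0.526. Its change was 0.39 without wild type 1 and 0.51 after a repeated quantile normalization, and its adjusted p ran from 0.0539 to 1.0 over the alternatives. Against the knockout, the knockdown mean was 1.29-fold higher (log2 change 0.37, SE 0.15, limma adjusted p of 0.917). The knockout differed from wild type by 0.18 (SE 0.15), by 0.02 without wild type 1 and by 0.31 without wild type 3.

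Lgmn, the asparagine endopeptidase that also activates several cathepsins, had 6.63, 6.27 and 6.49 in the knockdown, 6.47, 7.01 and 7.18 in the knockout, and 6.90, 6.99 and 6.85 in wild type. The knockdown arrays lay below all 3 wild type arrays, and knockout 7 lay among the knockdown arrays. The mean was 1.36-fold lower in the knockdown than in wild type (log2 change -0.45, SE 0.18, limma adjusted p of 0.851), and the change was -0.46 without wild type 1. Lgmn was the member on which wild type 1 stood within the range of its group. The knockout differed from wild type by -0.03 (SE 0.18), or 0.18 without knockout 7, and knockdown against knockout gave -0.42 (SE 0.18), or -0.63 without wild type 1 and knockout 7.

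Ctsd (higher) and Lgmn (lower) were the 2 members whose knockdown and wild type arrays did not overlap, where 8.25% of all genes did not overlap (4.8% higher, 3.46% lower). Between knockdown and knockout Ctsd (higher) and Ctsb (lower) did not overlap, where 9.6% of all genes did not (5.38% higher, 4.22% lower). Both comparisons of the knockdown use the same knockdown arrays.

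Ifi30 encodes GILT, the interferon-inducible thiol reductase of the lysosome. It had 9.47, 9.18 and 9.34 in the knockdown, 9.44, 9.80 and 9.78 in the knockout, and 9.01, 9.74 and 9.30 in wild type. Knockout 8 and 9 were the highest of the 9 arrays, with wild type 2 next. The changes were -0.02 (SE 0.19) in the knockdown, 0.33 (SE 0.19) in the knockout and -0.34 (SE 0.19) between knockdown and knockout, and none passed. Without wild type 1 they were -0.19 in the knockdown and 0.16 in the knockout against wild type, and without wild type 2 they were 0.18 and 0.52.

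Cst3 encodes cystatin C, a secreted inhibitor of cysteine cathepsins. It had 10.04, 9.79 and 9.94 in the knockdown, 9.64, 10.17 and 10.51 in the knockout, and 9.58, 10.48 and 10.32 in wild type. The knockdown arrays lay inside the range of both other groups. Against wild type Cst3 changed by -0.20 (SE 0.26) in the knockdown and -0.02 (SE 0.26) in the knockout, or -0.48 and -0.29 without wild type 1. The sign in the knockout was not settled, with 0.16 without wild type 2 and 0.22 without knockout 7.

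Prss16, the serine protease known from cortical epithelium, had the same value of 4.65 on 7 arrays, namely all 3 of the knockdown, all 3 of the knockout and wild type 1. Wild type 2 had 4.68 and wild type 3 had 4.89. RMA summarises probes by median polish, which gives equal values to several arrays, so the spread in these groups is understated and the change of -0.09 (SE 0.10) in each group rests on wild type 3. It was -0.015 without wild type 3.

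**Figure D3:**
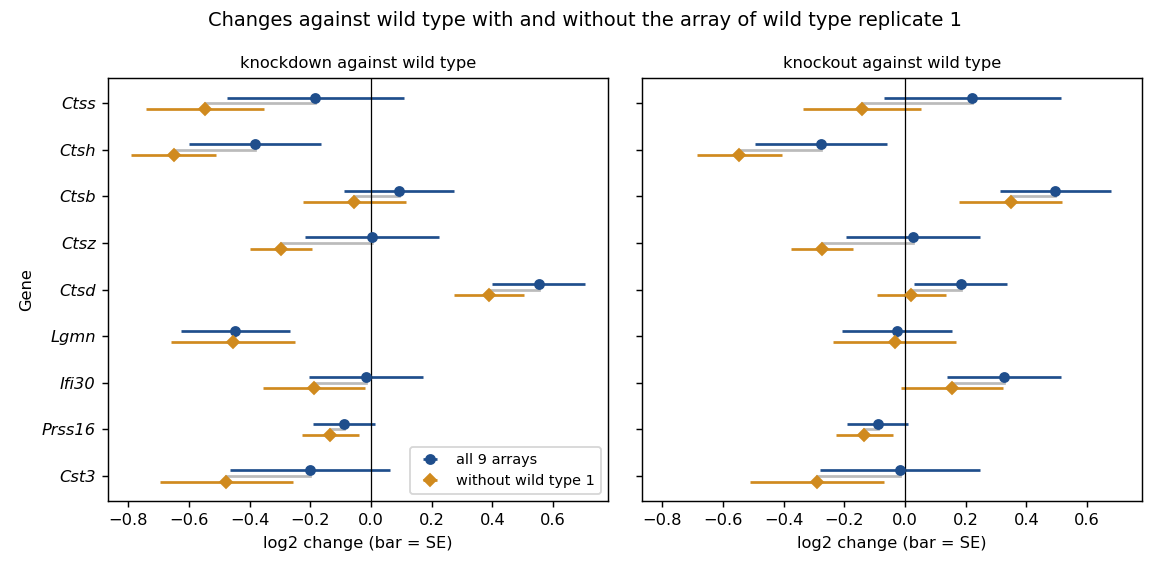
Log2 change against wild type (x axis, bars are SE) of the 9 genes in the knockdown and the knockout, from all 9 arrays (circles) and without wild type 1 (diamonds). All 9 genes shift to lower values without that array. Ctss, Ctsh, Ctsz and Cst3 shift the most, and Lgmn in the knockdown has -0.46 against -0.45 with all arrays.

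Wild type 1 was the lowest wild type array for 8 of 9 members, so leaving it out lowers their changes against wild type. Without it, 8 of 9 members, all but Ctsd, had lower means in the knockdown than in wild type, with a median of -0.30. With all arrays 6 of 9 did, with a median of -0.09. In the knockout 6 of 9 had lower means without wild type 1, with a median of -0.14, against 4 of 9 and 0.03. The median over all genes was 0.0045 and -0.00071 without that array. The number past the threshold was 0 in both comparisons either way, while 4 and 2 members had an unadjusted limma p under 0.05 without it. The share of all genes at that p was not counted for this fit, so the 4 and 2 cannot be read as particular to the members. Over all genes 48 and 13 passed the threshold without wild type 1, against 13 and 9 with all arrays. Other settings gave other counts of members with lower means. With quantile normalization repeated on all 9 arrays they were 6 in the knockdown and 3 in the knockout, with medians of -0.11 and 0.01. Without wild type 2 they were 4 and 2, with medians of 0.07 and 0.20.

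Other genes of the lysosome gave few differences either. Of 15 other lysosomal peptidases, 0 passed in any of the 3 comparisons, while 1, 2 and 3 had an unadjusted limma p under 0.05. The shares of all genes at that p were 5.24%, 3.34% and 5.04%. The medians of these peptidases were -0.09 in the knockdown and 0.08 in the knockout against wild type. Their mean deviations from the 9-array mean were -0.20, 0.16 and 0.04 in wild type, wild type 1 being the lowest array. The knockout had -0.15, 0.16 and 0.23. The smallest p-values belonged to Scpep1, a serine carboxypeptidase, and Ctsw, a cathepsin of cytotoxic lymphocytes. Scpep1 had 6.27, 6.10 and 6.57 in the knockdown, 6.68, 7.14 and 7.07 in the knockout, and 5.95, 6.66 and 6.59 in wild type. Its knockout arrays were above all others, with a change of 0.56 (SE 0.21) against wild type that did not pass. Wild type 1 was the lowest array and adds to this change. Of all genes 2.54% had every knockout array above every wild type array. Ctsw had -0.47 (SE 0.16) between knockdown and knockout.

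Among 16 measured cystatins and other inhibitors of cysteine proteases, 0 passed. In the 3 comparisons 3, 1 and 2 had an unadjusted limma p under 0.05, where 5.24%, 3.34% and 5.04% of all genes did. Of the 16, 8 lay below the first quartile of gene levels, where a change is hard to see. Stfa3, a stefin, had 6.75, 6.60 and 6.38 in the knockdown, 5.63, 6.32 and 5.94 in the knockout, and 4.69, 6.02 and 5.57 in wild type. The knockdown arrays were above all others, by 1.15 (SE 0.31) relative to wild type, with a limma adjusted p of 0.473. Wild type 1 was the lowest array and adds to this change. Of all genes 4.8% had every knockdown array above every wild type array. The mouse stefin genes are near-identical copies of each other, so the value is uncertain as to the gene. Cst10 had -0.56 (SE 0.19) in the knockout against wild type and also did not pass.

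Genes of the lysosomal membrane and of its acidification (22 measured) and genes that sort enzymes to the lysosome or control lysosomal genes (12 measured) had 0 members past the threshold and 0 at an unadjusted limma p under 0.05 in each comparison. Their medians were 0.061 and 0.074 in the knockdown and 0.061 and 0.096 in the knockout. Wild type 1 was the lowest array of both lists and raises these medians. Mean deviations of the membrane list from its 9-array mean were -0.44, 0.26 and 0.11 in wild type. They were 0.10, -0.08 and 0.08 in the knockdown and -0.21, 0.08 and 0.10 in the knockout. The sorting list had -0.16, 0.02 and -0.03 in wild type. Mcoln1, a lysosomal calcium channel, had 0.26 (SE 0.13) in the knockdown, and Laptm5, a lysosomal membrane protein of leukocytes, had -0.41 (SE 0.24) between knockdown and knockout. Igf2r, the mannose 6-phosphate receptor that carries new enzymes to the lysosome, had 0.28 (SE 0.13) in the knockout, and Nagpa, which uncovers that signal, had 0.27 (SE 0.14).

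Interferon-response genes were set beside Ctss and Ifi30, which interferon induces. Of 18 measured, 0 passed, while 4, 4 and 5 had an unadjusted limma p under 0.05 in the 3 comparisons, in the order used above. The shares of all genes at that p were 5.24%, 3.34% and 5.04%. The medians of the list were 0.22 in the knockdown and 0.19 in the knockout. These medians lean on wild type 1. The mean deviations of the list from its 9-array mean were -0.56, 0.05 and 0.06 in wild type. They were 0.13, -0.02 and 0.10 in the knockdown and -0.18, 0.18 and 0.24 in the knockout. Cxcl9 had 8.27, 7.90 and 8.14 in the knockdown, 8.30, 8.75 and 9.11 in the knockout, and 7.63, 8.16 and 7.92 in wild type, highest on knockout 8 and 9 as Ifi30 was. Oas1a ran otherwise, with 1.30 (SE 0.28) in the knockdown relative to the knockout and a limma adjusted p of 0.282.

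Dendritic cells and macrophages carry much Ctss, Ifi30 and Cst3, so their markers were followed array by array. In bulk samples such as these, fewer cells of a type and less RNA per cell cannot be told apart. The 22 measured markers had a mean deviation from their 9-array mean of -0.19, -0.19 and -0.06 in the knockdown, -0.10, 0.24 and 0.32 in the knockout, and -0.02, -0.04 and 0.04 in wild type. The 9 members had -0.02, -0.20 and -0.03 in the knockdown, -0.15, 0.16 and 0.26 in the knockout, and -0.39, 0.25 and 0.13 in wild type. Knockout 8 and 9 were thus above knockout 7 in both. This order was not particular to these 2 lists. On knockout 7, 8 and 9 the medullary epithelial list had -0.195, 0.003 and 0.091, and the cortical list had -0.207, 0.030 and 0.143. The lysosomal membrane list had the same order, and the cystatin, B cell, and fibroblast and endothelial lists did not. Between knockdown and knockout 19 of the 22 dendritic cell and macrophage markers had lower means, with a median of -0.25 and 0 past the threshold. An unadjusted limma p under 0.05 belonged to 4 of them there, where 5.04% of all genes had one.

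The summed signal of the dendritic cell and macrophage list, as log2, ranged from 9.74 to 9.92 in the knockdown, 9.83 to 10.28 in the knockout and 9.86 to 10.08 in wild type. Its markers Clec9a and Mertk lay below the first quartile of gene levels. Itgax, the integrin CD11c, had -0.71 (SE 0.14) between knockdown and knockout, and Ccr7 had -0.76 (SE 0.22) in the knockdown against wild type, and neither passed. The 12 thymocyte markers also stood highest on knockout 8 and 9, at 0.80 and 0.49, and their summed signal ranged from 8.52 to 8.85 in the knockdown, 8.69 to 9.79 in the knockout and 8.63 to 8.85 in wild type. Rag1 had 1.1 (SE 0.34) and Thy1 had 0.63 (SE 0.19) in the knockout against wild type. All 12 thymocyte markers had higher means in the knockout, with 0 past the threshold. The part of these cells in the member values was not tested.

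**Figure D4:**
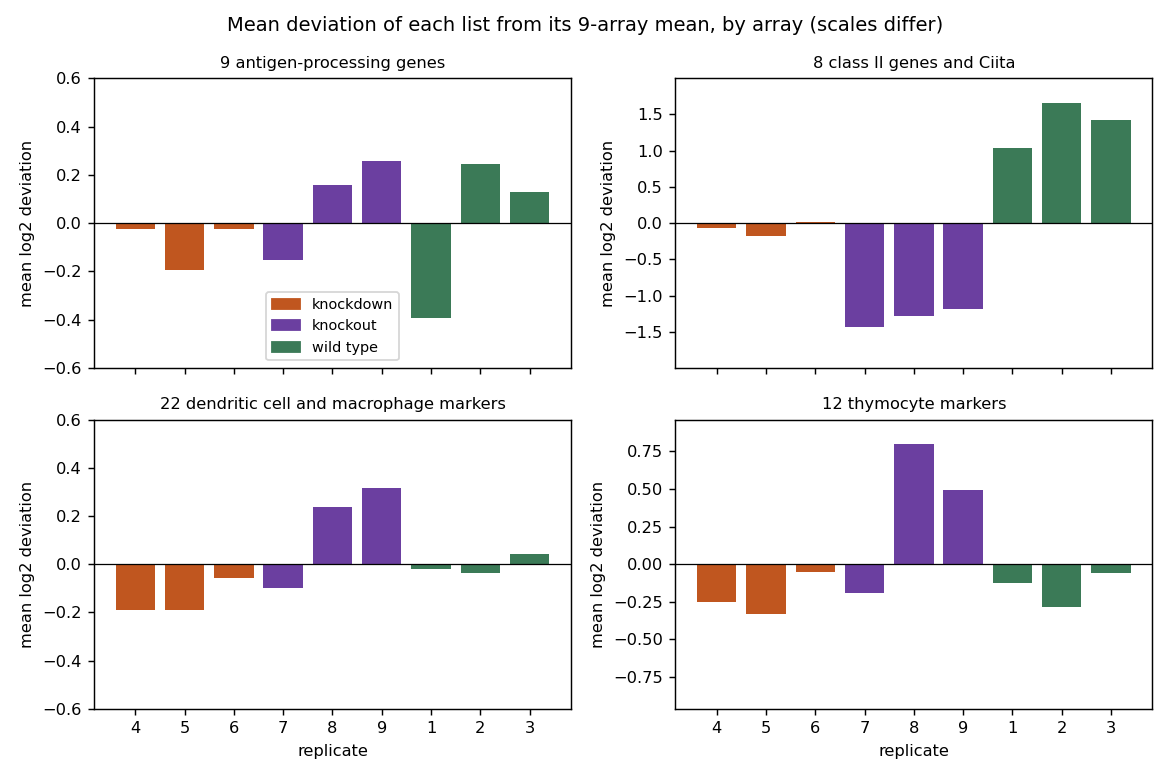
Mean deviation (y axis, log2, scales differ between panels) of 4 gene lists from their 9-array means, by array, for knockdown 4 to 6, knockout 7 to 9 and wild type 1 to 3. The processing genes are lowest on wild type 1 at -0.39 and highest on knockout 9 at 0.26, and the class II list separates the 3 groups.

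All 14 measured medullary epithelial markers, those of the labelled cell type, lay above the first quartile of gene levels. So did all 12 thymocyte markers, so this level does not tell cell types apart. The summed medullary signal ranged from 12.70 to 12.82 in the knockdown, 12.22 to 12.43 in the knockout and 12.04 to 12.64 in wild type. In the knockdown 9 of the 14 had lower means than in wild type and 5 higher, with a median of -0.07. Most markers thus did not share the higher sum. Of the 14, Aire, the regulator of tissue-restricted antigens, passed, with 1.54 (SE 0.14) in the knockdown. Among 9 cortical markers Psmb11 and Cxcl12 lay below the first quartile. Tbata (-0.51, SE 0.15) and Dll4 (-0.37, SE 0.12) had the smallest p-values in the knockdown without passing. The summed cortical signal ranged from 8.90 to 9.14 in the knockdown, 8.87 to 9.37 in the knockout and 9.18 to 9.5 in wild type. B cell markers (7 measured) and fibroblast and endothelial markers (8 measured) had 0 past the threshold. Their summed signals ranged from 6.91 to 7.11 and from 7.79 to 7.89 in the knockdown, 6.91 to 7.03 and 7.95 to 8.13 in the knockout, and 6.96 to 7.10 and 7.85 to 8.02 in wild type. Pax5 had -0.18 (SE 0.13) in the knockdown against wild type, and Pdgfrb had -0.56 (SE 0.15) and Pecam1 -0.34 (SE 0.12) in the knockdown against the knockout.

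The genes most like each member were the 2 with the highest Pearson correlation over the 9 arrays, picked from all 19593 genes, so that high values arise by selection. For Ctss they included Ido1, the interferon-inducible enzyme that degrades tryptophan (r = 0.980). For Ctsb they included Unc93b1, which escorts Toll-like receptors to endosomes (r = 0.984). The likest genes were Stard5 and Trafd1 for Ctsd, Slc6a4 and Actn3 for Ctsh, Nsun4 and Nars for Ctsz, and LOC668275 and Plekha2 for Lgmn. For Ifi30 they were Actn1 and Asap1, for Cst3 Rnf19b and Serpina7, and for Prss16 Pcsk7 and Hs6st2.

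Without the 2 arrays farthest from the median of the member, r was 0.966 between Ctss and Ido1 and 0.943 between Ctsb and Unc93b1 over the 7 arrays left. For Ctsh and its likest genes it was 0.869 and 0.811, where wild type 2 and 3 were left out. No value could be had for Prss16, whose remaining 7 arrays are equal. The points share the arrays that stand apart, among them wild type 1.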

How the data were processed

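RNA of 9 samples was measured on gene-level microarrays. The authors deposited log2 values. The submitters' processing notes name RMA, which corrects background, normalizes between arrays and summarises probe sets by median polish. The deposited intensity columns hold the same values on a linear scale and entered no test. The deposited q-value, a score in percent whose groups are not stated, was between 65.0 and 114 for the 9 members in the authors' deposited table and was not used. The sources used here give no software version, build or annotation release. No detection call was used.

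Groups came from the sample titles. Symbols were updated through RefSeq GRCm38.p6, by accession for 15192 probe sets, symbol for 3746 and synonym for 1262, and 1336 kept theirs. The probe set with the highest mean was kept for each of 19593 genes. One model over all 9 arrays (6 residual degrees of freedom) was fitted (limma 3.58.1, R 4.3.3), two-sided, with Benjamini-Hochberg adjustment over all genes and a threshold of 0.05, and was tested on simulated data. An exact permutation test of 3 against 3 cannot give a p below 0.1. Members and lists were chosen with earlier results of these data known. The text names every member, list genes past the threshold or the 2 with the smallest p of each list, and the 2 genes most like each member, except a few genes that are not reported here. H2-Ea and H2-Oa were picked as class II examples after their values were seen. The number of arrays limits precision.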

Additional observations from a re-analysis of the deposited data

How the results depend on the processing

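The count of members past the threshold was 0 in all 3 comparisons under each of the 21 alternatives, 2 of which were chosen after seeing the data, namely the fit lacking both wild type 1 and knockout 7 and the fit with a covariate for array interquartile range. Leaving out each replicate in turn gave 0 throughout. The lowest limma adjusted p of any member was 0.0539, for Ctsd in the knockdown against wild type with that covariate, and with array weights Ctsh in the same comparison had 0.0559, Ctsd there had 0.0593, and Lgmn in the knockdown against the knockout had 0.0594. With array weights 7, 4 and 6 members had an unadjusted limma p under 0.05 in the 3 comparisons, against 2, 1 and 2 with equal weights. The share of all genes at that p was not counted with weights, so these counts cannot be read as particular to the members. The counts of all genes past the threshold also rose, to 411, 71 and 310. Of 567 alternative values, 31 had the other sign, in 10 of the 27 pairs of member and comparison. All 31 were uncalled, with sizes up to 0.30.

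Counts over all genes moved more. In the knockdown against wild type, 13 genes passed, against 411 with array weights, 144 with the covariate, 48 when quantile normalization was repeated, 48 without wild type 1, 51 without it and knockout 7, 24 and 22 under the filters on dim genes, 23 with centring on the median, 8 and 5 without knockdown 4 and 6, and 2 in a fit of only those groups. In the knockout against wild type, 9 passed, against 71 with array weights, 30 with the covariate and 4 in a fit of only those groups. Between knockdown and knockout 8 passed, against 38 after quantile normalization, 310 with array weights, 155 with the covariate, 38 without wild type 1, 66 without it and knockout 7, and 5 without knockdown 4, knockdown 6 or knockout 7. No paired analysis was possible because the groups share no replicate number.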
